A study of Saccharomyces cerevisiae with 2 samples.

Results

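The genes described here encode the cytosolic tRNAs of budding yeast whose anticodon starts with A and whose genes have no intron. They were taken from the tRNA class of both libraries by name: every gene with an anticodon beginning with A in its bracketed name, and the proline tRNA genes SUF2 and SUF10, whose anticodon is AGG. The rule found 68 of the 274 nuclear tRNA genes that could be placed in an anticodon family, and 68 of 2635 named features in all. They form 7 families: tI(AAU) with 13 gene copies, tA(AGC), tS(AGA) and tT(AGU) with 11 each, tR(ACG) with 6, tV(AAC) with 14, and tP(AGG), which is SUF2 and SUF10, with 2. In such names the letter after t is the amino acid, the bracket holds the anticodon as encoded in the gene, and the letter after the bracket is the chromosome. Reads were seen at 66 of the 68 genes in the Bud22 library and at all 68 in the WT library. Of the 274 placed nuclear tRNA genes, 200 had reads with Bud22 and 274 in the WT library. Of the 2635 named features, 365 had reads with Bud22 and 2183 in the WT library.

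The first anticodon base, position 34, faces the third base of the codon. In the encoded tRNAs this A is deaminated to inosine by the Tad2-Tad3 enzyme, and inosine can pair with U, C or A, so that 1 tRNA reads several codons that differ in their last base. The families read the U-ending and C-ending codons for isoleucine, alanine, serine, threonine, arginine, valine and proline. Other tRNAs with U or C at position 34 read the rest of most of these codon boxes. Reverse transcriptase reads inosine as G, so a cDNA that crosses position 34 differs there from the gene.

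The data come from CRAC (UV crosslinking followed by cDNA analysis), where RNA crosslinked to a tagged protein is purified under denaturing conditions and sequenced. In the Bud22 library the RNA came from cells whose Bud22, a protein of the nucleolus that small-subunit assembly depends on, carries a His-TEV-protein A tag. The WT library came from untagged W303 cells and measures what the purification recovers without a tag. Both were grown in YPD to an OD600 of 1.0, shifted for 4 h to SDC-URA with 4-thiouracil, a uracil analogue that crosslinks under long-wave UV, and irradiated at 365 nm for 30 min. The labels of the WT library disagree: its growth text names the tagged strain, and its other fields say wild type. With 1 library per group there is no replicate error and no test, and every difference below is between these libraries.

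Sense reads over named features summed to 215982 with Bud22 and 132895 in the WT library, and these totals are the denominators of the shares below. The distinct read entries at these features summed to 5920 with Bud22 and 37130 in the WT library. That is 36.5 reads per entry with Bud22 and 3.58 in the WT library. An entry is a read sequence counted once however many copies of it were read, as inferred from the values. Entries cover both strands, and the entries of a feature were capped at its sense reads. All intervals are exact 95% intervals of counting error alone. Reads of 1 entry may be copies of 1 molecule, and so the main read values are given with their entries. A read counts at every gene copy it matches, so copies of a family are not separate measurements, and a family is represented by its most counted copy over both libraries. Gene lengths were not given for these genes, so the counts of different families are set side by side as counts and not as levels per length. No A34 gene had an antisense read in either library.

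Of the 7 families, those for isoleucine, alanine, serine and threonine were higher with Bud22 by reads, the proline family was lower, and the arginine and valine families were neither. A family or gene was called higher or lower when it had at least 10 reads over both libraries, its share differed at least 2-fold and the interval of the ratio excluded 1. Over all 494 named features that had enough reads, 23.7% were higher by this rule and 49.4% lower. Among all 37 tRNA families measured 18.9% were higher and 48.6% lower, and among the 30 outside the A34 set 10% were higher and 56.7% lower. By distinct entries tI(AAU) and tA(AGC) were higher and no A34 family was lower, where 17.5% of the 342 named features measured were higher and 12.6% lower. Of the 29 tRNA families measured by entries 20.7% were higher and 3.45% lower, and of the 22 outside the A34 set 18.2% were higher and 4.55% lower. Summed over the 7 families with 1 copy each, the set had 12712 reads with Bud22 and 3764 in the WT library, which is 5.89% (5.79 to 5.99) and 2.83% (2.74 to 2.92) of the named-feature reads. The ratio was 2.08 (2.00 to 2.16) by reads, and 2.77 (2.29 to 3.34) by entries, on 162 entries against 367.

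The size of these ratios depends on what the reads are shared out over. The named-feature total counts a tRNA read at each matching copy: the 68 A34 genes together make up 50.4% of it with Bud22 and 19.8% in the WT library. In both libraries it exceeds the mapped reads, which are 188065 with Bud22 and 97270 in the WT library. A share of 1 copy over this total is thus not the fraction of reads from that family. Relative to a total with each tRNA family counted once, the named-feature total is enlarged more with Bud22. Relative to mapped reads, the named-feature total is enlarged more in the WT library. The set ratio therefore rises on the first of these totals and falls on the second. With each tRNA family counted once in the total (86616 reads with Bud22 and 94665 in the WT library), a total added after the values had been seen, the set ratio was 3.69 (3.56 to 3.83) by reads and 4.02 (3.32 to 4.85) by entries, and tR(ACG) was called higher as well. Over mapped reads (188065 with Bud22 and 97270 in the WT library) the set ratio was 1.75 (1.68 to 1.81), and tI(AAU), at a log2 ratio of 0.79, was no longer called higher. When the total was limited to the tRNA families themselves, each by 1 copy (17493 reads with Bud22 and 6112 in the WT library), the A34 set took 72.7% (72.0 to 73.3) against 61.6% (60.4 to 62.8), which makes a ratio of 1.18 (1.14 to 1.22). By entries it took 50.2% against 35.4%, a ratio of 1.42 (1.17 to 1.71). On that scale the only family still called higher by reads was tS(AGA), while tV(AAC) and tP(AGG) were called lower, and the copies split into 11 higher and 16 lower in place of the 46 higher and 2 lower given below. The total without rRNA gave the same counts.

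**Figure D1:**
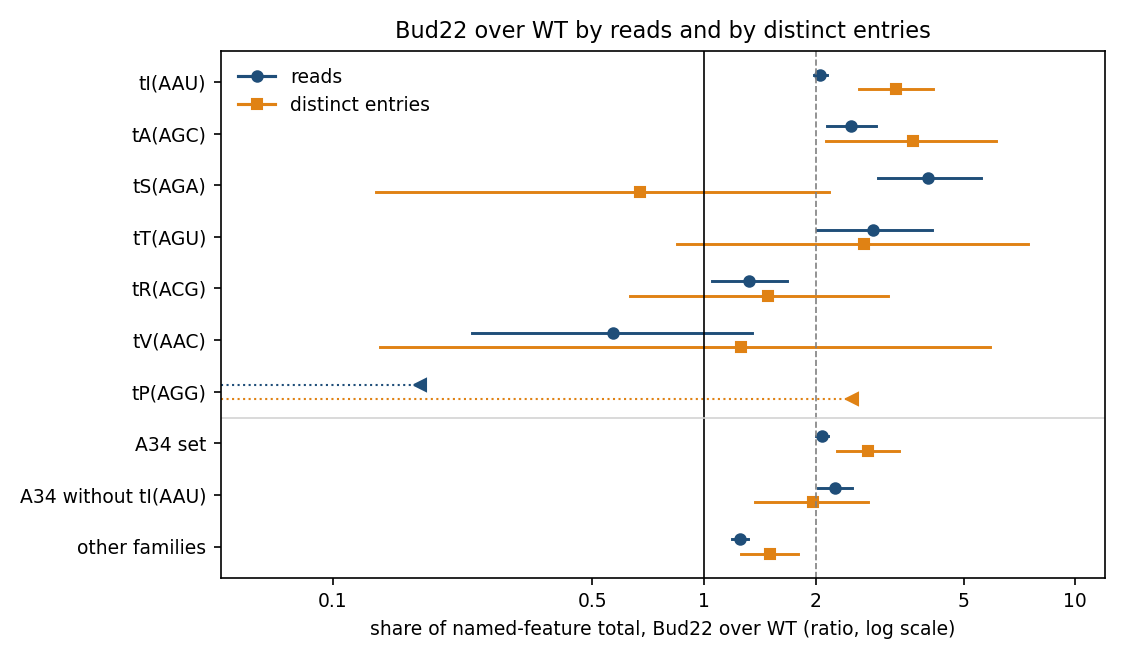
Ratio of the share of named-feature counts, Bud22 over WT, on a log axis, for each A34 family at its most counted copy, for the A34 set with and without tI(AAU) and for the other 35 tRNA families. Circles are reads and squares distinct entries, bars are exact 95% intervals, arrowheads are upper limits where the Bud22 library had no read, and the dashed line marks 2-fold. By reads the isoleucine, alanine, serine and threonine families lie above 2, and the serine square lies at 0.672.

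The isoleucine family tI(AAU), which reads AUU and AUC codons, held most of the A34 reads in both libraries. Its most counted copy, tI(AAU)I1 on chromosome IX, had 11132 reads with Bud22 and 3332 in the WT library. That is 5.15% (5.06 to 5.25) against 2.51% (2.42 to 2.59) of named-feature reads, and the quotient of the shares was 2.06 (1.98 to 2.14). Counted by entries, 117 against 223, it was 3.29 (2.61 to 4.13). Among A34 reads with 1 copy per family, tI(AAU) took 87.6% (87.0 to 88.1) with Bud22 and 88.5% (87.5 to 89.5) in the WT library, intervals that overlap, so its weight within the set was nearly the same by reads. By entries it took 72.2% (64.7 to 79.0) against 60.8% (55.6 to 65.8).

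The copies of tI(AAU) did not all have the same count. With Bud22, 11 of the 13 copies had between 6707 and 6749 reads, tI(AAU)E2 had 7757 and tI(AAU)I1 had 11132. In the WT library the same 11 copies had between 1554 and 1568 reads, tI(AAU)E2 had 1889 and tI(AAU)I1 had 3332. The order of these copies was thus shared by the libraries, and tI(AAU)I1 stood 1.66-fold above the least counted copy, tI(AAU)B, with Bud22 and 2.14-fold above it in the WT library. The difference between these copies was 4425 reads with Bud22 and 1778 reads in the WT library. In entries it was 18 with Bud22 and 35 in the WT library. As a result tI(AAU)I1 had the lowest read ratio of the family and tI(AAU)G the highest, at 2.66 (2.51 to 2.81). By entries tI(AAU)I1, tI(AAU)B and tI(AAU)G were at 3.29, 3.30 and 3.34.

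The alanine family tA(AGC), which reads GCU and GCC codons, showed the same direction by reads and by entries. Its copy tA(AGC)D had 842 reads with Bud22 and 208 in the WT library, or 0.390% (0.364 to 0.417) against 0.157% (0.136 to 0.179). The ratio was 2.49 (2.14 to 2.91), and 25 entries against 43 gave 3.65 (2.13 to 6.11). The copies were nearly interchangeable: 7 had 842 reads with Bud22 and 208 in the WT library, and the others 838 with Bud22 and 207 in the WT library. As a share of tRNA family reads, tA(AGC) was at 4.81% (4.50 to 5.14) with Bud22 and 3.40% (2.96 to 3.89) in the WT library.

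The serine family tS(AGA), which reads UCU and UCC codons, had the highest read ratio of the A34 families, but on the smallest number of entries among those higher. Each of its 11 copies had 307 reads with Bud22, from 3 entries. In the WT library tS(AGA)D1 had 47 reads from 28 entries, 9 copies had 41 reads from 25 entries, and tS(AGA)D3 had 18 reads from 10 entries. By reads the ratio was 4.02 (2.95 to 5.59) for tS(AGA)D1 and 10.5 (6.53 to 17.9) for tS(AGA)D3. By entries it was 0.672 (0.131 to 2.18) for tS(AGA)D1 and 1.88 (0.333 to 7.31) for tS(AGA)D3, so the direction differed between reads and entries for the first, and both intervals include 1. The Bud22 reads of this family stood at 102 per entry against 1.68 in the WT library. Whether these are copies of few molecules was not tested.

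The threonine family tT(AGU), which reads ACU and ACC codons, was higher by reads and was not called by entries. Its copy tT(AGU)I1 had 185 reads with Bud22 and 40 in the WT library, a ratio of 2.85 (2.01 to 4.11). Its entry ratio was of like size, at 2.69 (0.847 to 7.45) on 6 entries against 14, with an interval that includes 1. All 11 copies had 184 or 185 reads with Bud22 and 40 in the WT library.

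The arginine family tR(ACG) was under the 2-fold threshold over named features, and its direction depended on the total. With each tRNA family counted once in the total it was called higher, at a log2 ratio of 1.23. Over mapped reads its log2 ratio was 0.15 (-0.18 to 0.49), and without rRNA -0.27 (-0.60 to 0.08). Over the tRNA families it was -0.42 (-0.75 to -0.07), below 0 but not called lower. The family reads the CGU, CGC and CGA codons, and yeast has no other tRNA for CGA. Its copy tR(ACG)E had 234 reads with Bud22 and 109 in the WT library. The ratio of shares by reads was 1.32 (1.05 to 1.67), under the 2-fold threshold and with an interval above 1. By entries, 9 against 38, it was 1.49 (0.632 to 3.13), with an interval that includes 1. The copy tR(ACG)J stood apart in both libraries, with 119 reads with Bud22 and 42 in the WT library, while the others had 207 to 234 with Bud22 and 108 or 109 in the WT library. Its ratio was 1.74 (1.22 to 2.54) by reads, and 1.57 (0.284 to 5.81) by 3 entries against 12. The lowest ratio of the family was 1.18 (0.930 to 1.50), at tR(ACG)D.

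The valine family tV(AAC), which reads GUU and GUC codons, has the most gene copies of the 7 families and had few reads in either library. Every copy had 12 reads from 2 entries with Bud22 and 13 reads from 10 entries in the WT library. Over named features the ratio was 0.568 (0.237 to 1.35) by reads and 1.25 (0.134 to 5.89) by entries, so no difference was detectable on that total. Over the tRNA families the read ratio was 0.323 (0.135 to 0.767), called lower. The entry ratio there was 0.642 (0.0684 to 3.01), with an interval that includes 1. The number of gene copies in a family thus did not order the reads: with 14 copies tV(AAC) had 12 Bud22 reads, and with 6 copies tR(ACG) had 234.

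The proline family tP(AGG) was the one A34 family without a read in the Bud22 library. SUF10 had 0 reads with Bud22 and 15 in the WT library, and SUF2 had 0 with Bud22 and 11 in the WT library. Both gene names come from mutants that suppress frameshifts. Against a floor of 3 counts, which is 0.00139% of the Bud22 total, the share was at least 8.13-fold lower for SUF10 and at least 5.96-fold lower for SUF2. These bounds take the WT counts as exact, and with counting error in both libraries the ratio could be as high as 0.172 for SUF10 and 0.245 for SUF2. They hold for reads only, since 3 reads are less than the Bud22 library's mean for 1 entry. By entries, 0 with Bud22 against 11 in the WT library for SUF10, and 0 against 9 for SUF2, gave ratios of at most 2.50 and 3.18, and no fall could be detected by entries.

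**Figure D2:**
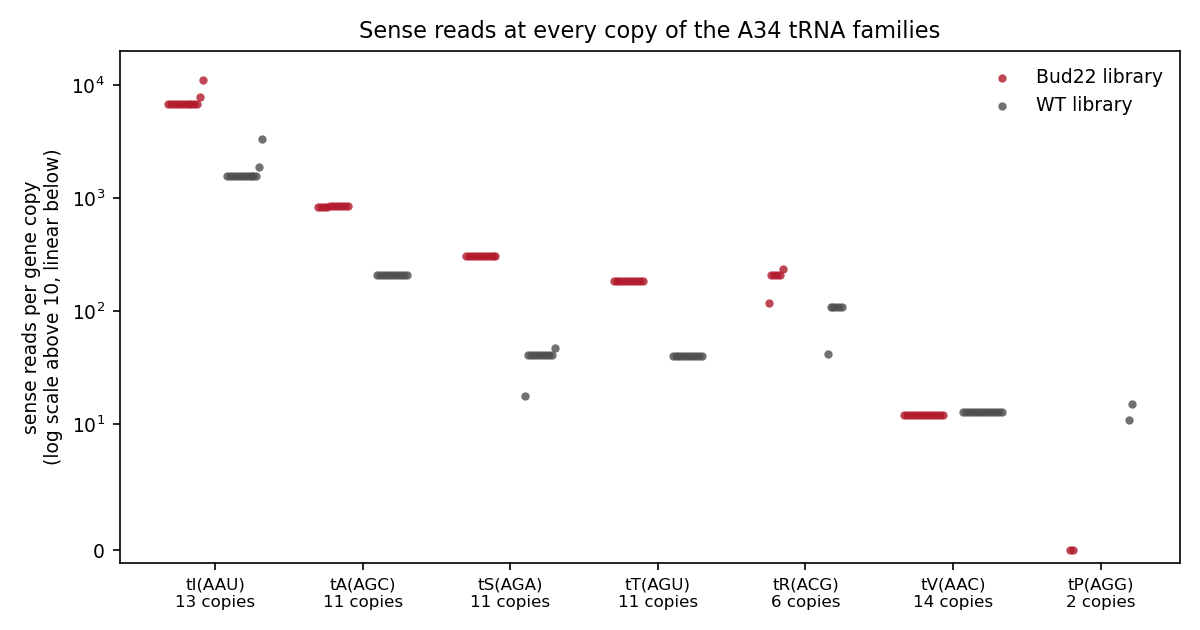
Sense reads at each gene copy of the 7 A34 families, Bud22 library on the left of each pair and WT library on the right, on an axis that is logarithmic above 10 and linear below. Each point is 1 gene copy, and copies share reads. Most copies of a family lie on 1 line, tI(AAU)I1 lies above its family in both libraries at 11132 and 3332 reads, and both tP(AGG) genes lie at 0 with Bud22.

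Without tI(AAU), the other 6 A34 families together still had a higher share with Bud22. They had 1580 reads from 45 entries with Bud22 and 432 reads from 144 entries in the WT library. Most of the Bud22 counts came from tA(AGC), with 842 reads from 25 entries against 208 from 43 in the WT library. A further 307 Bud22 reads were those of tS(AGA), from 3 entries. The ratio of the 6 families together was 2.25 (2.02 to 2.51) by reads and 1.96 (1.37 to 2.76) by entries over named features. Over the tRNA families it was 1.28 (1.15 to 1.42) by reads and 1.003 (0.701 to 1.41) by entries, and the entry interval includes 1. Within the tRNA total, entries therefore gave no detectable difference for the set apart from tI(AAU).

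By gene copy, 46 of the 68 A34 genes were higher by reads and 2, SUF2 and SUF10, were lower. These 46 are the 13 copies of tI(AAU) and the 11 copies each of tA(AGC), tS(AGA) and tT(AGU). Of all 249 tRNA features measured 22.5% were higher and 40.6% lower. The 56 tRNA features that were higher comprised these 46 and 10 others: the 8 SUP genes of tyrosine tRNA, TRT2 and tI(UAU)L. Of the 181 measured nuclear tRNA copies outside the set 5.52% were higher and 54.7% lower. The median log2 ratio of the 68 A34 copies was 1.33, against -0.93 over the 494 measured named features. Copies of a family count the same reads, so these are counts of genes and not of separate RNAs. By entries 24 of 67 measured A34 copies, all in tI(AAU) and tA(AGC), were higher and 0 lower, against 26 higher (16.4%) and 13 lower (8.18%) of the 159 outside the set.

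The other tRNA families were set beside the A34 set by position 34 and by intron, each with 1 copy per family. The 10 families with an intron had 2867 reads with Bud22 and 513 in the WT library, a ratio of 3.44 (3.13 to 3.78), and an entry ratio of 2.69 (1.98 to 3.61) on 66 entries against 154. Without tyrosine tRNA tY(GUA) they had 146 reads against 374, a ratio of 0.240 (0.197 to 0.292). By entries that ratio was 0.580 (0.282 to 1.08) on 11 against 119, with an interval that includes 1. Tyrosine tRNA was singled out here with its value known. The 6 intronless G34 families had 1033 against 1021 reads. Their read ratio was 0.623 (0.570 to 0.679) and their entry ratio 1.36 (0.977 to 1.86). Of the 5 G34 families measured by entries, 2 were called higher and 0 lower. The higher ones were tG(GCC), at 2.54 (1.61 to 3.94), and tN(GUU), at 2.15 (1.02 to 4.24). Of the 1033 Bud22 reads tG(GCC) had 632, and its read ratio was 0.779 (0.692 to 0.878). The 19 intronless U34 or C34 families had 881 against 814 reads. Their read ratio was 0.666 (0.605 to 0.733) and their entry ratio 0.995 (0.712 to 1.36). The A34 set without tI(AAU) lay above both intronless sets by reads, with intervals that do not overlap. By entries its interval overlapped that of the G34 set, and narrowly missed that of the U34 or C34 set at 1.37 against 1.36.

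**Figure D3:**
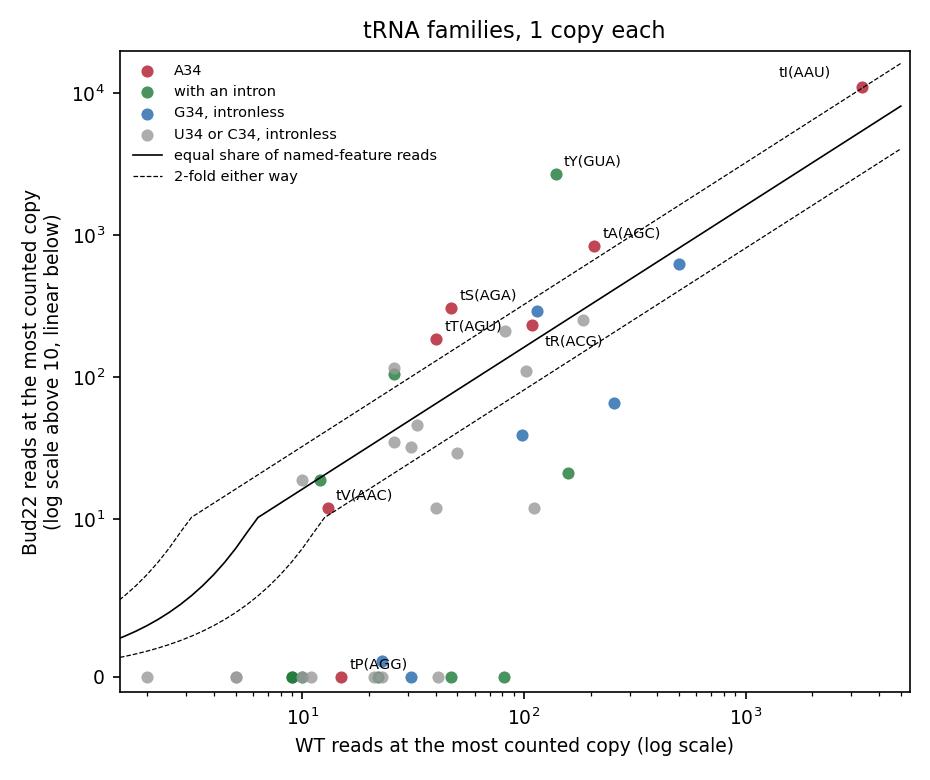
Reads at the most counted copy of each of the 42 tRNA families, Bud22 library on the vertical axis (log above 10, linear below) against WT library on the horizontal axis (log). Red points are A34 families, and the other colours mark families with an intron, G34 families and U34 or C34 families. The solid line is an equal share of named-feature reads and the dashed lines are 2-fold either way. tA(AGC), tS(AGA) and tT(AGU) lie above the upper dashed line with tI(AAU) close on it, and tY(GUA) lies highest above it at 2721 against 139 reads.

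Within a codon box, the A34 family can be set against tRNAs of the same amino acid whose codons differ from its own only in the last base. This leaves out the library total. The arginine tRNAs tR(UCU) and tR(CCU) and the serine tRNA tS(GCU) read codons outside these boxes and are not counted in them. With Bud22 they had 213, 32 and 0 reads, against 82, 31 and 9 in the WT library. The codon-box comparison was added after the values had been seen. In the alanine box tA(AGC) took 96.7% of reads (95.3 to 97.8) with Bud22 and 80.6% (75.3 to 85.3) in the WT library, where its partner tA(UGC) had 29 reads from 3 entries against 50 from 18. In the arginine box tR(ACG) took all 234 reads with Bud22 (98.4 to 100) and 83.8% (76.4 to 89.7) in the WT library, where its partner TRR4, the tR(CCG) gene, had 0 reads against 21 from 7 entries. In the serine box tS(AGA) took 89.0% (85.2 to 92.1) against 68.1% (55.8 to 78.8). The serine partners tS(UGA) and tS(CGA) each had 19 reads from 1 entry with Bud22, which may be the same reads counted at both. These read intervals do not overlap between the libraries.

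In the isoleucine, threonine and valine boxes the read intervals overlapped between the libraries. In the isoleucine box tI(AAU) took 99.1% (98.9 to 99.2) with Bud22 and 99.2% (98.9 to 99.5) in the WT library. Its partner tI(UAU), which reads AUA and whose genes have an intron, had 106 reads from 6 entries with Bud22 against 26 from 14 in the WT library. Its ratio was 2.51 by reads and 2.69 (0.847 to 7.45) by entries. In the threonine box tT(AGU) took 61.3% (55.5 to 66.8) against 51.9% (40.3 to 63.5), and its partner TRT2, the tT(CGU) gene, was also higher, with 117 reads from 8 entries against 26 from 12. In the valine box tV(AAC) took 100% (73.5 to 100) against 65% (40.8 to 84.6), the widest gap of these boxes and on the fewest reads, since the partners had no read with Bud22 and 7 in the WT library. In the proline box neither tP(AGG) nor tP(UGG) had a read with Bud22, against 15 and 47 reads in the WT library. By entries the intervals overlapped between the libraries in all boxes with Bud22 entries, from 89.3% (71.8 to 97.7) against 70.5% (57.4 to 81.5) for alanine to 60.0% (14.7 to 94.7) against 71.8% (55.1 to 85.0) for serine.

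**Figure D4:**
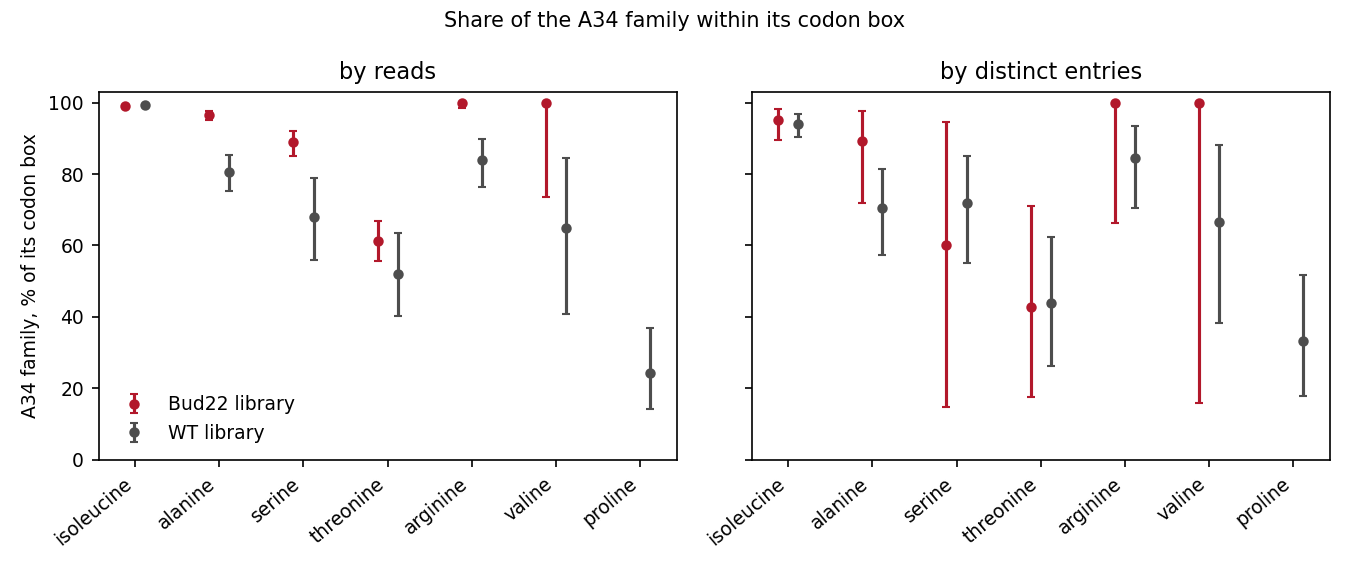
Share of the A34 family among the reads (left) or distinct entries (right) of its codon box, in percent, with exact 95% intervals, Bud22 library in red and WT library in grey. Proline has no Bud22 point because neither family had a read there. By reads the alanine, serine and arginine shares lie higher with Bud22 without overlap, at 96.7, 89.0 and 100% with Bud22 against 80.6, 68.1 and 83.8% in the WT library, and by entries all pairs overlap.

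Of the other measured tRNA families, the highest read ratios belonged to tY(GUA), tT(CGU) and tI(UAU), of which the last 2 are codon-box partners of A34 families. Of these families, 10 had no read with Bud22, so that their read ratios are all 0. By the ratio with a pseudocount of 0.5, which orders them by their WT reads, the lowest were tL(UAG), tP(UGG) and tG(UCC), with 81, 47 and 41 reads from 19, 22 and 20 entries in the WT library. By entries none of the 10 was called lower, but a fall could not have been detected. Several, such as tW(CCA) and tR(CCG), had fewer than 10 entries and were not measured. For tP(UGG), which had the most WT entries of the 10, the upper limit of the entry ratio was still 1.14.

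Genes whose products act on these tRNAs were nearly unseen as RNA. The list of 14 held the deaminase genes TAD1, TAD2 and TAD3, the aminoacyl-tRNA synthetase genes ILS1, ALA1, VAS1, SES1, THS1, YDR341C and YHR020W, and the maturation genes RPR1, TRZ1, LHP1 and CCA1. None had a read in the Bud22 library. In the WT library 9 had reads, 39 in all from 14 entries, and the highest was RPR1, the RNA of RNase P, which trims the 5′ end of tRNA precursors, with 10 reads from 2 entries. RPR1 was the only one with enough reads to be measured. By reads it was lower, as were 49.4% of the 494 measured named features. TAD3 had 4 reads, and TAD1 and TAD2 were without reads in both libraries. For comparison, sense reads fell on 106 protein-coding features in the Bud22 library, against 1723 in the WT library. By entries the upper limit of the ratio for the whole list was 1.89, so no difference was detectable.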

How the data were processed

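Both libraries hold raw counts of reads per annotated feature, which the authors made with pyReadCounters of Counters 1.2.1 and deposited, per the file headers. The sense count was used. The column headed as a number of reads was taken as distinct entries, an inference from the values: it exceeded the sum of both strand counts in 0 rows. Where that column exceeded the sense count of a feature, the sense count was used as its entries. The genome build, the annotation, the aligner's settings and the treatment of mismatches and duplicates were not stated in the sources used here. Coordinates and sequences are therefore left out. Intergenic regions, 15.8% of sense counts with Bud22 and 13.7% in the WT library, were left out of totals.

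Families were built from the anticodon in each name. Genes named otherwise were placed by their known anticodon, and mitochondrial tRNAs were left out. The members, lists and comparisons were chosen with earlier results of these data known. Named were all A34 families, in each the most and the least counted copy and those of the highest and lowest ratio, the 3 highest and 3 lowest other families, and the listed genes. Shares have exact Clopper-Pearson intervals and ratios exact conditional binomial intervals (SciPy 1.17.1, Python 3.11.15). Log2 ratios used a pseudocount of 0.5. Calls were tested on simulated counts drawn independently for each feature. Such counts hold neither repeated reads of 1 entry nor reads shared between copies, so this cannot show how calls behave under either.

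Alternatives were entries, both strands, other totals, other choices of copy, and other minimums, folds, intervals and pseudocounts. Planned sequence descriptions were not made.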

Additional observations from a re-analysis of the deposited data

How the results depend on the processing

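With 1 library per group there is no replicate error, and the A34 set rests on 162 entries with Bud22. No paired analysis was possible because each group has 1 library and no test was run. The set ratio of 2.08 was 2.77 by entries, 1.75 over mapped reads, 1.31 without rRNA, 1.18 over tRNA families, 3.69 by reads and 4.02 by entries with each tRNA family counted once in the total, 2.54 with all copies summed, 2.57 with the median copy and 2.48 with tI(AAU)E2 in place of tI(AAU)I1. The last of these and the total with each family counted once were chosen after seeing the data. Without tI(AAU) the ratio of 2.25 was 1.96 by entries, 1.89 over mapped reads, 1.42 without rRNA, 1.28 over tRNA families, and 4.00 by reads and 2.85 by entries with each tRNA family counted once. Families called higher, 4 in the reported setting, numbered 2 by entries, 3 over mapped reads, where tI(AAU) lost its call, 5 with each tRNA family counted once and 1 without rRNA, over tRNA families or at 4-fold. Families called lower, 1 as reported, numbered 0 by entries and with a minimum of 30, and 2 without rRNA or over tRNA families. Copies called higher, 46 as reported, numbered 24 by entries, 45 over mapped reads, 52 with each tRNA family counted once and 11 without rRNA, over tRNA families or at 4-fold, and 33 without the tI(AAU) copies. Copies called lower, 2 as reported, numbered 0 by entries and with a minimum of 30, and 16 without rRNA or over tRNA families. The A34 share of tRNA family reads was 50.2% with Bud22 and 35.4% in the WT library by entries, 74.1% against 59.3% with all copies, 64.8% against 48.5% with the median copy, and 66.1% against 49.7% with tI(AAU)E2. The tI(AAU) share of A34 reads was 72.2% with Bud22 and 60.8% in the WT library by entries, 85.3% against 85.0% with all copies, 81.2% against 78.7% with the median copy, and 83.1% against 81.4% with tI(AAU)E2. The log2 ratio of tS(AGA), 1.99 by reads, turned to -0.38 by entries, and the cause was not tested. Setting the median ratio over measured features to 1 raises every log2 ratio by 0.93 and gave 5 families and 52 copies higher. Counts of both strands, a 99% interval and no minimum changed no count of calls.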

Other observations

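Counts equal to those of A34 genes appear elsewhere in the deposited tables. Of the 66 A34 genes with Bud22 reads, 57 had sense counts that equal, in both libraries, the antisense counts of some intergenic region. Copies of a family often share their counts, as all 14 of tV(AAC) do, so 1 region can match several genes. Entries and positions were not compared for these regions, and other genes were not checked in this way. The reading frame YNL017C had 0 sense reads and 6710 antisense reads from 102 entries in the Bud22 library, and 0 sense and 1557 antisense reads from 189 entries in the WT library, the same numbers as the sense counts and entries of tI(AAU)N2. The reads per entry at tI(AAU)I1 were 95.1 with Bud22 and 14.9 in the WT library, against means over all named features of 36.5 with Bud22 and 3.58 in the WT library, while tV(AAC) stood at 6.0 with Bud22 and 1.30 in the WT library.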
